A study of Sus scrofa with 12 samples.

Results

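The transcripts described here are the RNA splicing factors of the pig annulus fibrosus, the collagenous ring of the intervertebral disc. They are the genes of the count table whose pig symbol begins with SRSF, HNRNP, SNRP, SF3A, SF3B, PRPF or U2AF, or with CLK or LSM and a digit, and that reached 10 counts throughout the libraries of 1 group or of both. All 50 rows with such a symbol, of 22198 rows in all, passed that minimum. They comprised 6 SRSF, 4 CLK, 11 HNRNP, 6 SNRP, 6 SF3A and SF3B, 11 PRPF and 6 LSM genes. A further 23 pig identifiers with such symbols had no row in the count table and could not be analysed. Among them were every U2AF gene and SRSF2, HNRNPL and HNRNPA2B1.

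The samples were ventral wedges of the annulus from the loaded lumbar level of Duroc cross pigs of both sexes, 3 to 4 months old, and all pigs were anaesthetized. A total of 6 libraries came from 6 Non-loaded Control pigs, which received no spinal loading. The other 6 came from 4 Hyperloaded pigs, which received repeated manual loads of 400 N to the lumbar spine at intervals of 1 or 2 min over 1 session of 4 h. The labels do not say which Hyperloaded libraries share a pig or an interval, so every p-value here reflects variation among libraries only, and libraries that share a pig make it smaller than it should be.

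Introns are removed from pre-mRNA by the spliceosome, which is built from small nuclear ribonucleoproteins (snRNPs) and their partner proteins. SR proteins (SRSF genes) generally bind exonic enhancers and promote the use of nearby splice sites, whereas hnRNP proteins (HNRNP genes) often oppose them, and CLK kinases phosphorylate SR proteins and thereby control their release from nuclear speckles. Many of these genes produce alternative transcripts themselves, so a gene-level count does not say how much protein-coding transcript was present.

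Libraries held 12519251 to 24896924 counts in the Controls and 12483998 to 19298022 in the Hyperloaded group. Levels below are in CPM, that is, counts scaled to a common library size with TMM factors, and calls are those of edgeR's quasi-likelihood test with p-values adjusted by Benjamini-Hochberg over 12597 tested genes, at an adjusted p under 0.05. Fibroblast and tendon markers were present, summing to 73452 CPM or more in every library. Of the 8 tested, edgeR called 4 higher (THBS4, KERA, MKX and TNMD) and 1 lower (COL3A1). The tissue mix differed between libraries. The summed CPM of 9 chondrocyte markers was 134040 to 685710 in Controls and 4497 to 162500 in Hyperloaded libraries. Of the 8 tested, 2 were called lower and 0 higher. The 6 skeletal muscle markers, all called higher, summed to 9.63 to 178 CPM in Controls and to 31.7 to 37667 in the Hyperloaded group. The highest sums were 37667 in Hyperloaded 2, 4334 in Hyperloaded 6 and 1044 in Hyperloaded 3. Macrophage and monocyte markers were called higher for 10 of 12 tested, with sums of 35.1 to 202 CPM in Controls and 204 to 371 in Hyperloaded libraries. Endothelial markers were called lower for 4 of 6, with sums of 545 to 861 and 399 to 632 CPM. Smooth muscle and pericyte markers had 1 of 7 called higher, and 0 of 3 erythroid markers were called by edgeR, with 0 at an unadjusted p under 0.05. The 1 tested lymphocyte marker was called higher, and lymphocyte markers summed to 1.15 to 5.07 CPM in Controls and 7.79 to 11.7 in Hyperloaded libraries. Over all tested genes, edgeR called 10.8% higher and 8.45% lower, and 36.5% had an unadjusted p under 0.05. In such bulk tissue, fewer cells of a type and less RNA per cell cannot be told apart.

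Splicing factor transcripts differed little in level between the groups, and where they differed they were mostly higher after Hyperloading. edgeR called 5 of the 50 higher: the kinase gene CLK4, the SR protein genes SRSF7 and SRSF11, and the hnRNP genes HNRNPLL and HNRNPU, with fold-changes of 1.28 to 1.53. That is 10% of the members, and 10.8% of all tested genes were called higher, so edgeR's calls were not more common here than elsewhere. The tests of DESeq2 and of limma-voom with sample quality weights (limma-voom below) called 11 and 12 of the 50 higher, against 15% and 14.5% of all genes. None was called lower by edgeR, where 8.45% of all genes were. At an unadjusted p under 0.05, 2 members, PRPF40B and SNRPA, were lower (4%, against 17.3% of all genes) and 17 were higher (34%, against 19.2%), together 38% against 36.5%. The counts at this limit given below for single families are read against the same 36.5%. No member reached a 2-fold change with an unadjusted p of at most 0.01, the limits used in the methods of the study, which 8.43% of all genes met.

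The direction was shared more widely than the calls. The log2 fold-change was above 0 in 38 of the 50 (76%), against 50.4% of all genes. It was above 0 in 33 with upper quartile scaling and 47 with library size only. The median of all genes also moved in those fits, to -0.06 and 0.28. The median log2 fold-change of the 50 was 0.17, where that of all genes was 0.00, and their values ran from -0.45 to 0.61. Their median absolute log2 fold-change of 0.19 was smaller than the 0.33 of all genes. They also varied less between libraries of a group, with a median SD of log2 CPM of 0.17 in Controls and 0.20 in Hyperloaded libraries, against 0.28 and 0.37 for all genes. The splicing factors were also the more abundant, with a median level of 30.5 CPM against 12.3 CPM.

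**Figure D1:**
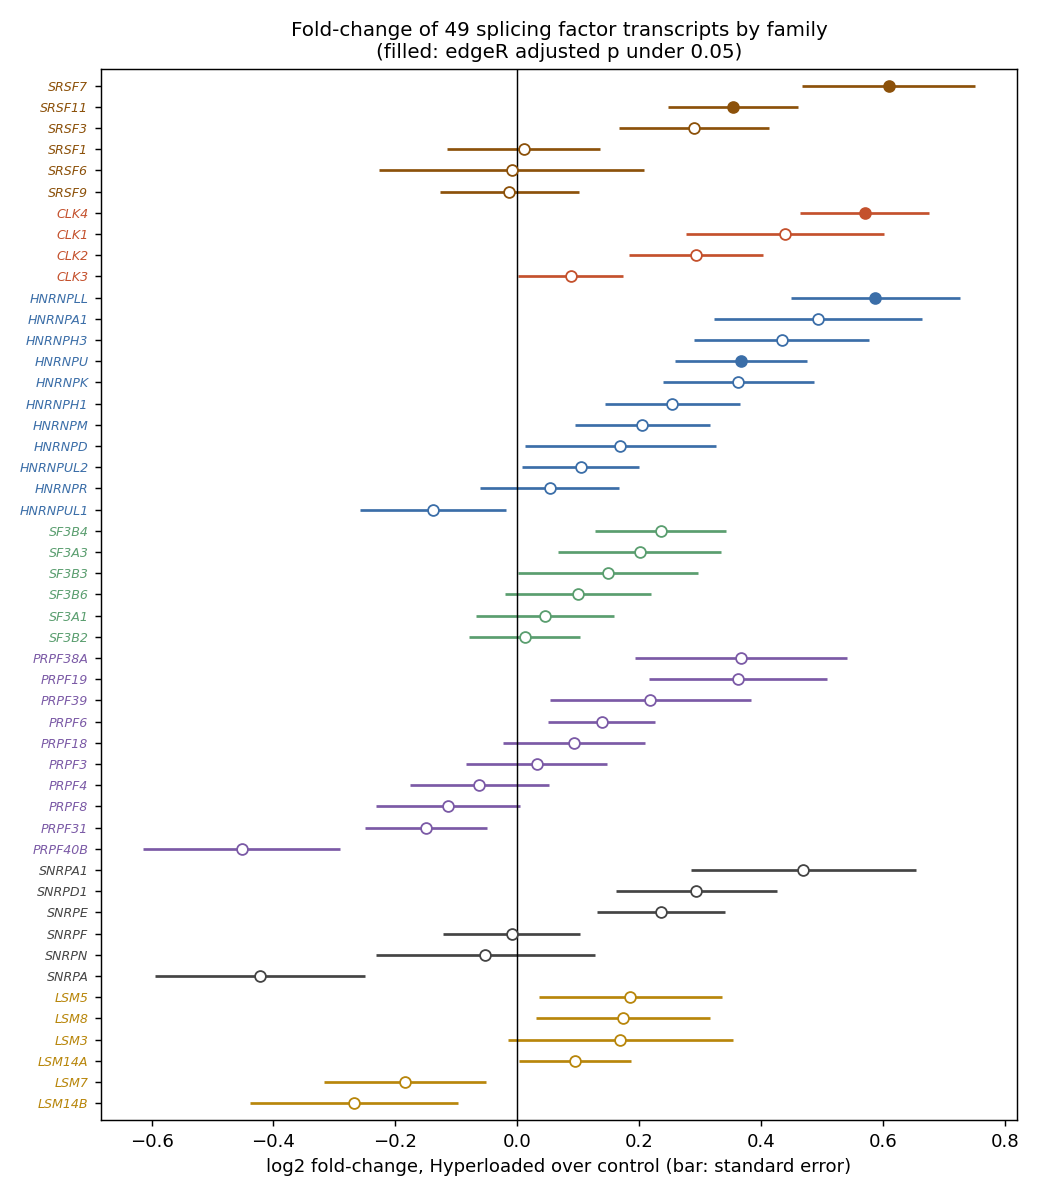
Log2 fold-change (x axis, Hyperloaded over Control, bars 1 standard error) of 49 of the splicing factor transcripts, listed by family. Filled points are the 5 called by edgeR, CLK4, SRSF7, HNRNPLL, HNRNPU and SRSF11, and all 5 lie to the right of 0.

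CLK4, SRSF7 and HNRNPLL had the smallest p-values of the 50. The sequences before their gene models are shown first because the levels of these genes carry most of what follows. Each line gives the 250 bases before the start of the RefSeq gene model in Sscrofa11.1, on the plus strand, and the start used in this tissue was not measured. Capitals mark matches on either strand to the cAMP response element TGACGTCA, the GC box GGGCGG or the CCAAT box CCAAT. The windows lie at chr2:79729210-79729459 for CLK4, chr3:101753080-101753329 for HNRNPLL and chr3:101599179-101599428 for SRSF7.
CLK4: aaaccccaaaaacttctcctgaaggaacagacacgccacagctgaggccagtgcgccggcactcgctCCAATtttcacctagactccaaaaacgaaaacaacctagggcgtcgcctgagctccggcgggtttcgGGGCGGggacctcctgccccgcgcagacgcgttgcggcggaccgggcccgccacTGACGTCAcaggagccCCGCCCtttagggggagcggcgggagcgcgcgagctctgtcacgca
HNRNPLL: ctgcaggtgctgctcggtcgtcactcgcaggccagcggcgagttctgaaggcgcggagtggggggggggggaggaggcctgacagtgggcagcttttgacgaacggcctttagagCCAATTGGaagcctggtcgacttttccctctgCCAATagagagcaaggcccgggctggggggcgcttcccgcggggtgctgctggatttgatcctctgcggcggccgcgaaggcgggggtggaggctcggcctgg
SRSF7: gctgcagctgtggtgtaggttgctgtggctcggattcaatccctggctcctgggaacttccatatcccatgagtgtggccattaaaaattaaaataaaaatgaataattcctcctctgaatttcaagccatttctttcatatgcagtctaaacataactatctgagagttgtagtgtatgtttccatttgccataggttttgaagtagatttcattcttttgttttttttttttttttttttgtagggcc

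The CLK4 window held 27 CpG dinucleotides, 1 cAMP response element, 2 GC boxes and 1 CCAAT box. The HNRNPLL window held 20 CpG and 3 matches to CCAAT, of which a pair overlaps on opposite strands in CCAATTGG. The SRSF7 window held 1 CpG and none of the motifs searched, with 36.8% G and C. Whether it is the promoter of SRSF7 was not tested, so the absence of motifs describes this window only. Over the 47 members with a window, the median was 20 CpG, against 12 over 19545 promoters. The ETS motif CCGGAAG occurred in 10 of the 47 windows (21.3%), against 7.77% of all promoters, and the cAMP response element in 2, those of CLK4 and SRSF6 (4.26%, against 1.70%). GC boxes occurred in 51.1% of member windows and 45.9% of all, and CCAAT boxes in 36.2% and 31.9%. The AP-1 motif TGANTCA occurred in 2.13% and 5.25%, and TATAAA in 4.26% and 9.77%. CpG-rich windows of this kind are typical of broadly expressed genes, and a match to such letters is a description of the sequence only.

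Among the CLK kinases, CLK4 (ENSSSCG00000014028, chr2:79729460-79752945) rose. CLK4 phosphorylates the serine and arginine-rich domains of SR proteins. Its level was 27.9 CPM in the lowest Control library, 33.8 at the median and 36.6 in the highest, and 40.5, 50.04 and 56.9 CPM at the same points of the Hyperloaded group. Every Hyperloaded library lay above every Control library, the lowest being Hyperloaded 5. The log2 fold-change was 0.57 (SE 0.11, fold-change 1.48, edgeR adjusted p = 0.00726). The call held in all 12 fits that left out 1 library, with adjusted p of 0.00318 to 0.0217. It did not hold without the 3 libraries rich in muscle transcripts, Hyperloaded 2, 3 and 6, where the log2 fold-change was 0.50 and the adjusted p 0.0631. That fit has fewer Hyperloaded libraries, and in it edgeR called 1.00% of all genes higher and 0.315% lower, against 10.8% and 8.45%. Calls lost in that fit, here and below, are read against this general loss.

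The other 3 CLK transcripts also had log2 fold-changes above 0, and none was called by edgeR, whereas DESeq2 and limma-voom called CLK1 and CLK2 higher. CLK1, which encodes the best-studied kinase of the family, measured 82.2, 97.5 and 131 CPM (lowest, median, highest) in Controls and 105, 147 and 163 CPM after Hyperloading, with a log2 fold-change of 0.44 (SE 0.16, edgeR adjusted p = 0.0716). Its groups overlapped, with Control 5 and Control 6 above Hyperloaded 2 and Hyperloaded 3. CLK2 had a log2 fold-change of 0.29 (SE 0.11, edgeR adjusted p = 0.0744) and CLK3 one of 0.09 (SE 0.09, edgeR adjusted p = 0.483). The median over the 4 kinases was 0.37, the highest of the 7 families.

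SRSF7 (ENSSSCG00000008484, chr3:101599429-101608786) had the largest fold-change of the 50. It encodes an SR protein with a zinc knuckle that acts in splicing and in mRNA export. Its level was 20.3, 22.5 and 28.4 CPM (lowest, median, highest) in Controls and 29.9, 34.4 and 50.3 CPM after Hyperloading. The groups did not overlap, although Control 5 at 28.4 CPM came close to Hyperloaded 5 at 29.9 CPM, and Hyperloaded 6 stood highest at 50.3 CPM. The log2 fold-change was 0.61 (SE 0.14, fold-change 1.53, edgeR adjusted p = 0.0147). Leaving out single libraries kept the call in all 12 fits (adjusted p of 0.0101 to 0.0390). Without Hyperloaded 2, 3 and 6 the log2 fold-change was 0.44 and the adjusted p 0.0977.

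SRSF11, an SR-related protein known to interact with U2AF, rose less and less firmly. It measured 66.6, 79.6 and 83.5 CPM in Controls and 85.7, 104 and 107 CPM in the Hyperloaded libraries, so that all Hyperloaded libraries were higher. The log2 fold-change was 0.35 (SE 0.11, fold-change 1.28, edgeR adjusted p = 0.0368). Only 4 of the 12 fits that left out 1 library kept this call, with adjusted p of 0.0226 to 0.0831. The call was kept without Control 5, Hyperloaded 2, Hyperloaded 3 or Hyperloaded 5, and was lost with upper quartile scaling, with no count minimum, without Hyperloaded 2, 3 and 6 (log2 fold-change 0.34), without Control 6, Hyperloaded 1 and Hyperloaded 3 (0.37) and in the fit blocked on replicate number (0.35).

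The remaining SR protein genes were not called by edgeR, DESeq2 or limma-voom. SRSF3, the smallest SR protein, measured 47.3, 57.5 and 63.1 CPM in Controls and 52.2, 68.2 and 78.8 CPM after Hyperloading, a log2 fold-change of 0.29 (SE 0.12, edgeR adjusted p = 0.109). SRSF1, the founding SR protein, SRSF6 and SRSF9 had log2 fold-changes of 0.01, -0.01 and -0.01, with standard errors of 0.13, 0.22 and 0.11. The family was therefore split between 2 called members and 3 near 0. SRSF6 was the most variable between Controls, from 55.0 CPM in Control 3 to 136 CPM in Control 5.

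**Figure D2:**
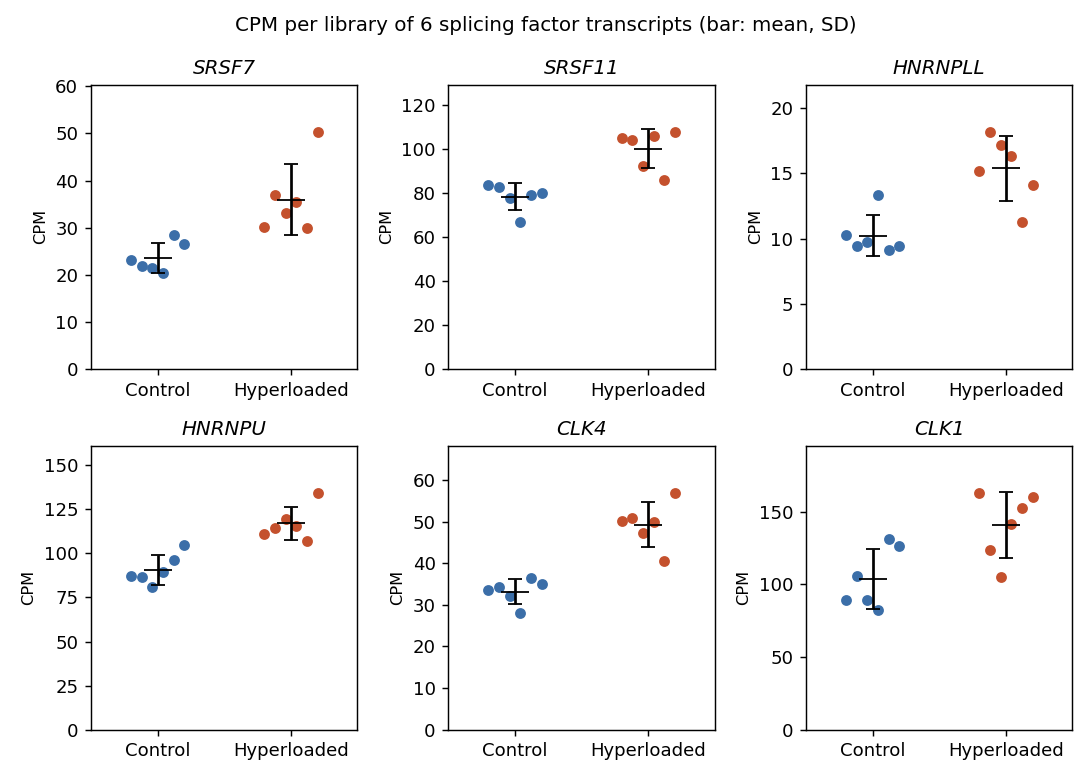
Level in CPM (y axis, from 0) of SRSF7, SRSF11, HNRNPLL, HNRNPU, CLK4 and CLK1 in each of the 6 Control and 6 Hyperloaded libraries, with the mean and SD as a bar. The groups do not overlap for CLK4 (highest Control 36.6, lowest Hyperloaded 40.5 CPM), SRSF7, SRSF11 and HNRNPU, and overlap for HNRNPLL and CLK1.

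The hnRNP genes had 10 of 11 log2 fold-changes above 0 (9 with upper quartile scaling), a median of 0.25 and 2 members called. HNRNPLL (ENSSSCG00000020878, chr3:101753330-101795356) encodes a paralogue of hnRNP L that regulates the alternative splicing of PTPRC (CD45) in lymphocytes of mouse and human. It measured 9.14, 9.61 and 13.3 CPM in Controls and 11.3, 15.8 and 18.2 CPM after Hyperloading. The groups overlapped only through Control 4 at 13.3 CPM, above Hyperloaded 5 at 11.3 CPM. The log2 fold-change was 0.59 (SE 0.14, fold-change 1.503, edgeR adjusted p = 0.0155), and the call was kept in all 12 fits that left out 1 library (adjusted p of 0.00585 to 0.0400). It was lost without Hyperloaded 2, 3 and 6 (log2 fold-change 0.49, adjusted p = 0.123), and without the 3 libraries for which the series gives no raw data, Control 6, Hyperloaded 1 and Hyperloaded 3 (0.52, adjusted p = 0.0703). PTPRC itself, which marks leukocytes, rose from 3.42 ± 3.62 CPM to 12.7 ± 2.94 CPM (SD, n = 6 each, edgeR adjusted p = 0.0270), with 10.4 CPM in the highest Control and 7.36 CPM in the lowest Hyperloaded library. The lymphocyte and macrophage sums given above did not overlap between the groups, the macrophage sums only narrowly (202 CPM in Control 1, 204 in Hyperloaded 5). Control 4, the highest Control for HNRNPLL, had the lowest macrophage sum (35.1 CPM) and 1.24 CPM of lymphocyte markers. Control 1, the next Control for HNRNPLL at 10.3 CPM, had the highest Control sums (202 and 5.07 CPM). Hyperloaded 5 was lowest of its group for HNRNPLL and for the macrophage sum. The part of these cells in the level of HNRNPLL was not tested.

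HNRNPU, which encodes a scaffold attachment protein that binds chromatin and nascent RNA, also rose. It measured 81.1, 88.1 and 105 CPM in Controls and 107, 115 and 134 CPM after Hyperloading, without overlap. The log2 fold-change was 0.37 (SE 0.11, fold-change 1.29, edgeR adjusted p = 0.0342). This call was kept in 5 of 12 fits that left out 1 library, with adjusted p of 0.0274 to 0.0827, namely without Control 5, Control 6, Hyperloaded 1, Hyperloaded 2 or Hyperloaded 5. It was lost under the same 5 alternatives as that of SRSF11, with a log2 fold-change of 0.30 without Hyperloaded 2, 3 and 6. HNRNPK, a poly(C)-binding protein, also separated the groups, with 141, 160 and 169 CPM in Controls and 182, 194 and 259 CPM in Hyperloaded libraries, but missed the threshold (log2 fold-change 0.36, SE 0.12, edgeR adjusted p = 0.0550). Complete separation with Hyperloaded higher was thus seen for CLK4, SRSF7, SRSF11, HNRNPU and HNRNPK, or 10% of the 50, against 3.81% of all genes. Separation in the other direction was seen for 0 of the 50, against 2.98%.

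The other hnRNP transcripts did not pass edgeR's test, although DESeq2 called HNRNPK, HNRNPH3, HNRNPA1 and HNRNPH1 higher and limma-voom called HNRNPK and HNRNPH3. HNRNPH3, of the hnRNP H and F group that binds G-runs, measured 31.0, 41.0 and 50.5 CPM in Controls and 43.3, 55.0 and 66.7 CPM after Hyperloading (log2 fold-change 0.43, SE 0.14, edgeR adjusted p = 0.0504). HNRNPA1, an antagonist of SR proteins in splice site choice, measured 161, 197 and 209 CPM in Controls and 175, 272 and 334 CPM in Hyperloaded libraries (log2 fold-change 0.49, SE 0.17, edgeR adjusted p = 0.0592). The highest HNRNPA1 levels, 334, 331 and 302 CPM, were those of Hyperloaded 2, 3 and 6, the libraries with the most skeletal muscle transcripts, and without them its log2 fold-change was 0.18. HNRNPA1 has many pseudogene copies in mammals, so its counts depend on how shared reads were assigned. HNRNPH1 had a log2 fold-change of 0.25 (SE 0.11, edgeR adjusted p = 0.114), and HNRNPM, HNRNPD, HNRNPUL2 and HNRNPR lay between 0.05 and 0.21. HNRNPUL1 lay at -0.14 (SE 0.12, edgeR adjusted p = 0.422).

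SRSF7 and HNRNPLL are neighbours on chromosome 3, with 144.5 kb between them and GALM, an enzyme of galactose metabolism, in the interval. Of the 14 protein-coding RefSeq genes within 500 kb on either side of the pair, 8 were tested. ATL2, which shapes the endoplasmic reticulum, was the only other one called, with a log2 fold-change of 0.51 (SE 0.17, edgeR adjusted p = 0.0488). GALM had a log2 fold-change of -0.17 (SE 0.11, edgeR adjusted p = 0.273). GEMIN6, a subunit of the SMN complex that assembles snRNPs, had -0.10 (SE 0.14, edgeR adjusted p = 0.641), and DHX57, SOS1 and MORN2 had 0.12, 0.22 and -0.45. In this interval, then, 3 of the 8 tested genes were called and 5 were not. The interval was drawn around SRSF7 and HNRNPLL, which were themselves called, so only the call of ATL2 was not given by that choice. Over all tested genes, edgeR called 19.3% in either direction. Of the 50, 4 pairs lay within 1 Mb of each other, and no other pair had both genes called.

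The snRNP core genes held 0 calls by edgeR, with 4 of 6 at an unadjusted p under 0.05 and pointing both ways. SNRPA1, the U2 snRNP A′ protein, measured 7.80, 9.01 and 10.2 CPM in Controls and 7.83, 12.97 and 15.9 CPM after Hyperloading (log2 fold-change 0.47, SE 0.18, edgeR adjusted p = 0.0874). Its 3 highest libraries were Hyperloaded 2, 3 and 6 at 15.2, 15.7 and 15.9 CPM, and without them the log2 fold-change was 0.05. SNRPA, the U1 snRNP A protein, pointed the other way, with 7.35, 9.94 and 12.0 CPM in Controls and 4.44, 7.45 and 8.37 CPM in Hyperloaded libraries (log2 fold-change -0.42, SE 0.17, edgeR adjusted p = 0.0975). The Sm ring genes SNRPD1, SNRPE and SNRPF had log2 fold-changes of 0.29, 0.24 and -0.01. limma-voom called SNRPD1 and SNRPE higher, and DESeq2 called no snRNP gene. SNRPN, the neuronal Sm protein, ranged from 20.3 CPM in Hyperloaded 2 to 44.8 CPM in Hyperloaded 1, with a log2 fold-change of -0.05 (SE 0.18) that changed sign with the scaling and without Hyperloaded 2, 3 and 6.

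The SF3A and SF3B genes, whose products form the part of the U2 snRNP that holds the branch point, stayed close to 0. All 6 log2 fold-changes were above 0 (4 with upper quartile scaling), between 0.01 for SF3B2 and 0.24 for SF3B4, and 0 were called by edgeR, with 1 at an unadjusted p under 0.05. With upper quartile scaling, SF3B2 lay at -0.06. SF3B4 measured 19.7, 22.4 and 26.8 CPM in Controls and 23.8, 26.8 and 31.5 CPM after Hyperloading (SE 0.11, edgeR adjusted p = 0.132), and limma-voom called it higher. SF3B2 measured 68.0 to 79.9 CPM in Controls and 70.4 to 78.7 CPM in Hyperloaded libraries, one range inside the other. DESeq2 called no gene of this family.

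The PRPF genes spread on both sides of 0, with 7 log2 fold-changes above and 4 below (10 above with library size only), 0 called by edgeR and 2 at an unadjusted p under 0.05. PRPF40B, a U1 snRNP-associated protein with WW domains, had the lowest value of the 50. It measured 15.1, 19.7 and 21.6 CPM in Controls and 9.78, 13.1 and 18.6 CPM after Hyperloading (log2 fold-change -0.45, SE 0.16, edgeR adjusted p = 0.0655). DESeq2 and limma-voom both called it lower, and edgeR did so with upper quartile scaling (adjusted p = 0.0498).

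PRPF19, the ubiquitin ligase of a complex that activates the spliceosome, measured 30.7, 33.1 and 36.8 CPM in Controls and 30.4, 42.0 and 54.1 CPM after Hyperloading (log2 fold-change 0.36, SE 0.15, edgeR adjusted p = 0.0947). As with SNRPA1, the highest values were 51.9, 46.3 and 54.1 CPM in Hyperloaded 2, 3 and 6, and the log2 fold-change without them was 0.05. PRPF8, the scaffold of the catalytic core, measured 107 to 152 CPM in Controls and 119 to 138 CPM in Hyperloaded libraries (log2 fold-change -0.11, SE 0.12, edgeR adjusted p = 0.510). The tri-snRNP genes PRPF3, PRPF4, PRPF6 and PRPF31 lay between -0.15 and 0.14. PRPF38A, PRPF39 and PRPF18 had log2 fold-changes of 0.37, 0.22 and 0.09, with standard errors of 0.17, 0.16 and 0.12.

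The LSM genes held 0 calls by edgeR, DESeq2 or limma-voom, and 0 at an unadjusted p under 0.05. LSM3, LSM5, LSM7 and LSM8 encode Sm-like proteins, of which LSM8 belongs to the nuclear ring on U6 RNA, and their log2 fold-changes were 0.17, 0.19, -0.18 and 0.17. LSM14A and LSM14B, whose products act in cytoplasmic mRNA repression rather than splicing, lay at 0.09 (SE 0.09) and -0.27 (SE 0.17). LSM14B was lowest in Hyperloaded 2 and Hyperloaded 6, at 10.5 and 10.8 CPM, and its log2 fold-change without Hyperloaded 2, 3 and 6 was -0.00090.

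**Figure D3:**
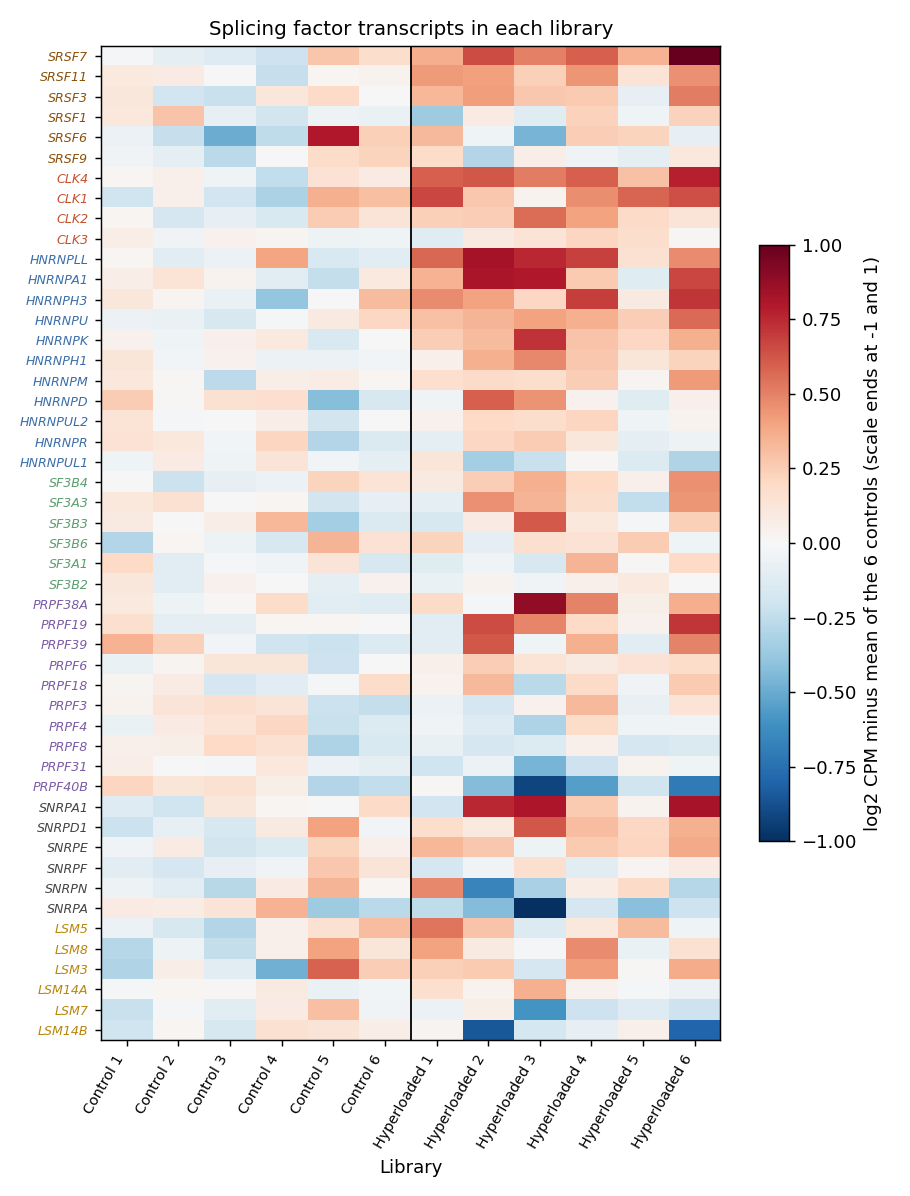
Log2 CPM of 49 of the transcripts (rows, by family) in each of the 12 libraries (columns), minus the mean of the 6 Controls, with red above and blue below and the colour scale ending at -1 and 1. Rows such as CLK4 and SRSF7 are red across all 6 Hyperloaded columns, while SNRPA1, PRPF19 and HNRNPA1 are most strongly red in Hyperloaded 2, 3 and 6.

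Summed over the 50 genes, splicing factor transcripts came to 2253 ± 46.2 CPM in Controls and 2589 ± 133 CPM in Hyperloaded libraries (SD, n = 6 each). The ranges, 2172 to 2294 and 2343 to 2722 CPM, did not overlap. Abundant genes weigh most in this sum, such as HNRNPA1 (means of 191 and 269 CPM) and HNRNPUL1 (170 and 154 CPM), neither called by edgeR. The median deviation of the 50 from the Control mean was 0.03 log2 units in the lowest Hyperloaded library and 0.22 in the highest. In Controls it was -0.04 to 0.04, so the groups overlapped in this measure. Without scaling factors the 50 genes took 0.159% to 0.246% of all counts in Controls and 0.219% to 0.371% in Hyperloaded libraries, which overlap. Muscle and chondrocyte transcripts differed between libraries as given above, and their part in this sum was not tested. Without Hyperloaded 2, 3 and 6, edgeR called 0 of the 50 in either direction. Of all genes it called 1.00% higher and 0.315% lower. In that fit 10 of the 50 had an unadjusted p under 0.05, a limit at which all genes were not counted. The median log2 fold-change of the 50 was then 0.09, and that of all genes was -0.02.

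**Figure D4:**
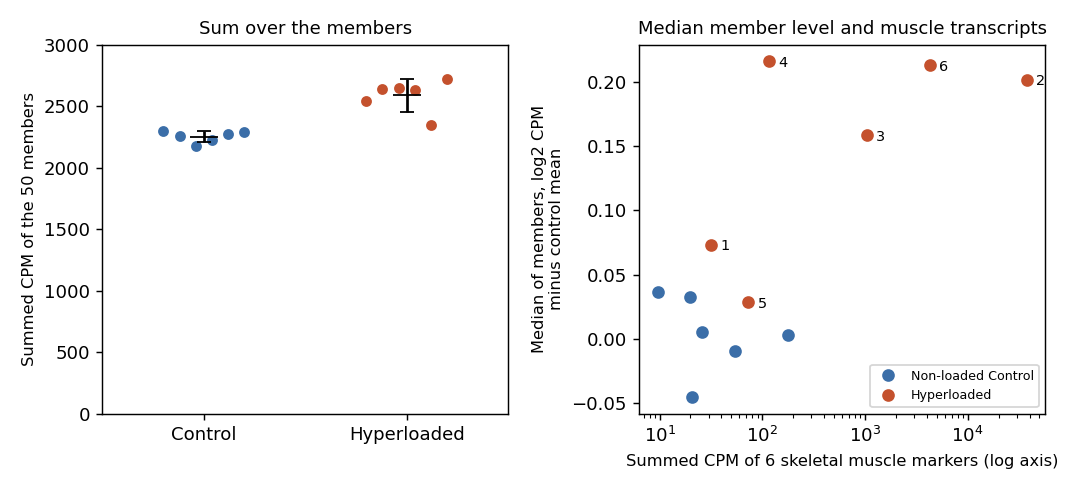
Left, summed CPM of the 50 splicing factor transcripts (y axis, from 0) in each library with the mean and SD as a bar, 2253 ± 46.2 in Controls and 2589 ± 133 in Hyperloaded libraries. Right, median deviation of the 50 from the Control mean (y axis, log2 CPM) against the summed CPM of 6 skeletal muscle markers (x axis, log scale), with Hyperloaded libraries numbered, where Hyperloaded 2 lies at 37667 CPM and the Controls at 178 CPM or below.

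Per kilobase of RefSeq exon, Control levels of the 50 ran from 86.0 CPM for HNRNPA1 and 78.3 for SRSF6, through 8.34 for CLK4 and 3.79 for SRSF7, to 1.56 for HNRNPLL and 1.23 for SNRPN. These lengths come from an annotation other than the one used in counting, and that of SNRPN spans 26272 bases, so its place is uncertain.

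Splicing genes outside these families gave calls that were mostly higher, and are read against the same 10.8% and 8.45%. Counts at an unadjusted p under 0.05, for these lists and those of the next paragraph, are read against 36.5% of all genes. Of 40 other core spliceosome genes tested, 3 were called higher and 0 lower by edgeR, with 7 at an unadjusted p under 0.05 and a median log2 fold-change of 0.05. The 3 were SNW1, a component of the activated spliceosome (log2 fold-change 0.45, SE 0.10, edgeR adjusted p = 0.0131), SMNDC1, a Tudor-domain protein needed for spliceosome assembly (0.45), and the helicase DHX15, which takes spliceosomes apart (0.45). Of 59 other splicing regulators, 9 were called higher and 1 lower, with a median of 0.17. RSRC2, an arginine and serine-rich protein, rose by 0.58 on the log2 scale (SE 0.10, edgeR adjusted p = 0.00634), and TRA2B, an SR-like activator of exon inclusion, by 0.56 (SE 0.10, edgeR adjusted p = 0.00693). TIA1, which binds U-rich sequence after 5′ splice sites, rose by 0.47 and the muscleblind gene MBNL3 by 1.13. FUBP3, the only regulator called lower, had a log2 fold-change of -0.33 (SE 0.09, edgeR adjusted p = 0.0294) and is named because of its direction, after its value was seen. RSRC2 and TRA2B kept an adjusted p under 0.05 without Hyperloaded 2, 3 and 6 (0.0436 and 0.0496), whereas SNW1, SMNDC1, DHX15, TIA1 and MBNL3 did not (0.0624 to 0.286). Their log2 fold-changes in that fit were 0.38, 0.39, 0.21, 0.48 and 1.36, of which that of DHX15 lay furthest below its value over all 12 libraries. The DHX15 call was kept in 3 of 12 fits that left out 1 library, and was lost with upper quartile scaling and with no count minimum.

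Genes that act on the splicing factors or on their assembly were mostly not called. Of 15 kinases, phosphatases and other factors that act on SR proteins outside the CLK family, 1 was called higher. It was PPP2CA, the catalytic subunit of protein phosphatase PP2A (log2 fold-change 0.39, SE 0.12, edgeR adjusted p = 0.0457). Of 19 snRNP assembly genes, 2 were called higher and 1 lower. PHAX, the export adaptor of small nuclear RNAs, rose by 0.53 on the log2 scale (SE 0.11, edgeR adjusted p = 0.00980) and the cap-binding gene NCBP1 by 0.46 (SE 0.15, edgeR adjusted p = 0.0499). MEPCE, which caps the small nuclear RNA 7SK, fell by 0.51 (SE 0.14, edgeR adjusted p = 0.0260). None of these 4 genes passed without Hyperloaded 2, 3 and 6, where the log2 fold-changes were 0.22 for PPP2CA, 0.45 for PHAX, 0.30 for NCBP1 and -0.46 for MEPCE. Without single libraries, PHAX was called in 12 of 12 fits, MEPCE in 8, NCBP1 in 4 and PPP2CA in 3, and the calls of NCBP1 and PPP2CA were also lost with upper quartile scaling and with no count minimum. None of 5 minor spliceosome genes (0 at an unadjusted p under 0.05) and none of 9 exon junction and nonsense-mediated decay genes (2 at an unadjusted p under 0.05) was called by edgeR. ESRP1, an epithelial splicing regulator, was at 0 counts in all 12 libraries.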

How the data were processed

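Messenger RNA was sequenced from 12 libraries, 6 per group, grouped by their labels. By the methods of the study, poly(A) libraries were made with a TruSeq kit that does not mark strand, so overlapping genes on opposite strands cannot be told apart, and reads were mapped to Sscrofa11.1 with JMP Genomics, allowing 2 mismatches per read. The authors deposited expected counts per Ensembl gene, which need not be whole and were rounded here. Symbols were matched for 11700 identifiers (52.7%). Genes reaching 10 counts throughout the libraries of either group were tested with edgeR 4.0.16 (R 4.3.3, TMM factors, no covariate). Log2 CPM used a prior count of 2. Alternatives used DESeq2 1.42.0, limma-voom 3.58.1 with sample quality weights, other scalings, count minima and thresholds, and a replicate block. Further fits were made without single libraries, without 3 muscle-rich libraries or without 3 libraries lacking raw data. Only the edgeR test was checked on simulated data, and those of DESeq2 and limma-voom were not. The simulated libraries were independent, so libraries that share a pig were not covered.

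Genes named were those called, SRSF7 and HNRNPLL, the smallest p and highest mean CPM of each family, and up to 4 called genes per further list. Of the members, 15 were named by this rule, and the others after their values were seen. Members, lists and the muscle-rich libraries were chosen with earlier results of these data known. Sequences and positions are from RefSeq (Sscrofa11.1), matched by symbol. The values of 1 member, which enters the counts, medians and sums, are not reported here. The precision of a level is limited by the number of libraries and by counts, the splicing factors having at least 28 counts in each library.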

Additional observations from a re-analysis of the deposited data

Results flagged for a closer look

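Of 52 groups of 6 libraries examined (the named splicing factors and the summed level), 4 held a library far from the other 5, where chance gives about 1 in 20 groups. HNRNPLL in Control 4 stood at 3.75 log2 CPM, above the next Control at 3.38, and is the value through which its groups overlap. SRSF11 in Control 4 stood at 6.06 log2 CPM, below the next at 6.28. SNRPA in Hyperloaded 3 stood at 2.19 log2 CPM, below the next at 2.82. HNRNPK in Hyperloaded 3 stood at 8.02 log2 CPM, above the next at 7.65.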

How the results depend on the processing

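The count of 5 splicing factors called higher was 6 with DESeq2 size factors and 5 with the minimum required in both groups. It was 3 with upper quartile factors, 3 with no count minimum, 11 with the DESeq2 Wald test, 12 with limma-voom, 11 with library size only and 0 at the 2-fold limit, and 0 without the muscle-rich libraries and 2 without those lacking raw data. Leaving out 1 library gave 3 to 9: 3 without Control 1, 2, 3 or 4 or Hyperloaded 4 or 6, 8 without Control 5 and 9 without Hyperloaded 5. The count called lower, 0, was 1 (PRPF40B) with upper quartile factors, DESeq2, limma-voom and without the libraries lacking raw data, and 0 to 1 without single libraries (1 without Hyperloaded 1 or 5). The median log2 fold-change of 0.17 was 0.10 with upper quartile factors and 0.093 without the muscle-rich libraries, and 0.14 to 0.18 without single libraries. The median of all genes was -0.063 with upper quartile factors and -0.020 without the muscle-rich libraries. The splicing factors lay 0.16 and 0.11 above it, against 0.16 by default. With library size alone their median was 0.45 and that of all genes 0.28, leaving the splicing factors 0.17 above it. Calls over all genes split 1361 higher and 1065 lower by default, 1969 and 327 with library size only, 1129 and 1419 with upper quartile factors, and 1823 and 1829 with limma-voom. Over all 50, log2 fold-changes were above 0 in 38 by default, 47 with library size only and 33 with upper quartile factors. Among the named genes, signs turned for SF3B2 with upper quartile factors (-0.056), PRPF8 with library size only (0.16), SNRPN with library size only (0.19), limma-voom (0.053) and without the muscle-rich libraries (0.25) and LSM14A without the libraries lacking raw data (-0.0050). Without single libraries SF3B2 ran from -0.014 to 0.037 and SNRPN from -0.19 to 0.047. The causes were not tested.

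By the methods of the study, Control and Hyperloaded libraries came from different pigs, so replicate numbers do not pair animals. Deviations of same-numbered libraries correlated at -0.121 to 0.263 over 6 pairs, and 3 of 6 correlated best with their own number. These values do not settle whether same-numbered libraries had anything else in common. With the replicate number as a block, 3 splicing factors were called higher (CLK4, SRSF7 and HNRNPLL), and 950 genes were called higher and 794 lower in all.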
